A study of Mus musculus with 30 samples.

Results

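The ribosomal protein genes of the cytosolic ribosome were followed through 5 epithelial fractions of the mouse small intestine and through exposure to indolo[3,2-b]carbazole (ICZ). Members were chosen by symbol alone: Rps or Rpl followed by a number, with the copies whose symbols end in a, l, x or 1, together with Rplp0, Rplp1, Rplp2 and Rpsa. The rule took 85 of the 54146 genes in the deposited table. Of these, 34 belong to the small subunit, 48 to the large subunit and 3 to its P stalk, which is counted apart throughout. In GENCODE M21, 83 of them are protein-coding, Rps4l is a transcribed processed pseudogene and Rps12l1 a processed pseudogene, and together the 85 lie on 19 chromosomes.

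Female C57BL/6J mice of 8 to 10 weeks, all labelled WT in the sample titles, were moved from chow to the semi-purified diet AIN93G for 1 week. They were then gavaged with 10 µg of ICZ in corn oil or with the vehicle. AIN93G is a diet without ligands of the aryl hydrocarbon receptor. ICZ is a strong ligand of that receptor, a transcription factor that responds to indoles of the diet. After 12 h the small intestinal epithelium was released by sequential EDTA steps into fractions F1 to F5, and each fraction gave a 3′ end (QuantSeq) library. Vehicle mice gave 15 libraries (3 mice with 5 fractions each) and ICZ mice gave 14 (no F1 of replicate 3 was analysed here). The fraction numbers give the order of release, and the labels do not say which stretch of the crypt-villus axis each holds. Libraries held 4359673 to 7819837 gene reads. One library stood apart: in F5 of ICZ replicate 1, 54.3% of the reads fell on its 10 most counted genes (median of the libraries 26.8%), and member counts for F5 and for the slope in ICZ mice are given with and without it.

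A ribosome is built from ribosomal RNA and one copy of most ribosomal proteins, and the P stalk, which calls in the elongation factors, carries extra copies of the acidic proteins P1 and P2. The genes are transcribed strongly in dividing cells, and their mRNAs begin with a pyrimidine tract, the TOP motif, through which mTOR signalling and LARP1 control their translation. In the intestinal epithelium, cells divide in the crypt and leave the cycle as they move up the villus, so ribosome production is generally a crypt feature.

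The start of the transcript is what these genes share outside their names, and it could be read from the RefSeq promoter table for GRCm38.p6 for 63 of the 85 members. The windows printed here run from 10 bases before the annotated start to 20 bases from it. Capitals mark the longest C followed by at least 4 bases that are each C or T. They show the longest tract (Rpl27a, 20 bases) and a tract of 14 bases that begins after the annotated start (Rpl13a). Longer tracts than that of Rpl13a in Rpl35 (18 bases), Rpl15 and Rpl7a (17 each) are not printed. The others are members named for their role (Rplp2, Rps27, Rps6, Rpl22l1) and the member with the largest change between vehicle fractions (Rps23). Copies with small estimates between fractions (Rps27l and Rpl7l1) were added.
Rpl27a: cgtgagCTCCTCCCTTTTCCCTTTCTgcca
Rpl13a: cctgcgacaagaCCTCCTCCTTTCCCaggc
Rplp2: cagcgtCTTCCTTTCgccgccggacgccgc
Rps27: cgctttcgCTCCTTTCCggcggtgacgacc
Rps6: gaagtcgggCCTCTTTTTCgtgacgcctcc
Rpl22l1: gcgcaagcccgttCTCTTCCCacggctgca
Rps23: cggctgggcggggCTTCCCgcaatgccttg
Rps27l: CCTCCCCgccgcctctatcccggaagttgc
Rpl7l1: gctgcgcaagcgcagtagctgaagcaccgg

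The Rpl27a window lies at chr7:109519185-109519214 on the plus strand and that of Rpl13a at chr7:45128726-45128755 on the minus strand. Rplp2 lies at chr7:141447641-141447670 (plus), Rps27 at chr3:90213629-90213658 (minus) and Rps6 at chr4:86857348-86857377 (minus). Rpl22l1 lies at chr3:28805498-28805527 (plus), Rps23 at chr13:90923112-90923141 (plus), Rps27l at chr9:66946076-66946105 (plus) and Rpl7l1 at chr17:46782637-46782666 (minus). In Rpl27a the tract ran for 20 bases and in Rps6 for 10, both across the annotated start. In Rpl13a a tract of 14 bases began just after the start, as did those of Rpl22l1 and Rps23. The longest tract of Rps27l ended before the start, with a shorter run just after it, and the window of its other annotated start held none. The Rpl7l1 window held none.

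Over the whole set, a C followed by at least 7 bases that are each C or T, on the sense strand within 25 bases of the start, was found in 33 of 63 members (52.4%) and in 17.7% of the 27025 genes with a promoter entry. On the opposite strand the same search found it in 7.94% of members and 19.6% of all genes. Mitochondrial ribosomal protein genes, whose mRNAs are not TOP mRNAs, held it in 20.3% of cases on the sense strand. Of 16 genes of other TOP mRNAs only 4 held it there, so the search missed most of that list and does not mark TOP mRNAs in general. The shorter form, with at least 4 pyrimidines after the C, was found in 51 of 63 members (81.0%) and in 56.8% of all genes. CCGGAAG, the core that ETS factors such as GABP bind, was found on either strand of the 300 bases around the start in 41.3% of members, 37.7% of mitochondrial ribosomal protein genes and 9.93% of all genes. These matches are letters in a window and were not tested as sites, and 3′ libraries do not read the start that the cells used.

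Reads counted per member spanned a wide range. The members held 2105058 reads over the 29 libraries, and 10 of them held 69.4% of these. Rplp1 had the most, 278263 reads with a mean of 1459 CPM (counts per 1000000 reads), followed by Rps20 (237617), Rpl4 (201160) and Rpl8 (125642). At the other end, Rpl10l and Rps12l1 had 0 reads, which over all libraries allows up to 0.0161 CPM, Rpl39l had 14, Rpl3l 17 and Rpl24 25. Rps6, whose protein is the substrate of S6 kinase and a core part of every small subunit, had 40 reads, and Rpl5, the large subunit protein that binds 5S ribosomal RNA, had 137. In all, 71 members had reads in every library, 75 reached 100 reads and 29 reached 10000.

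Rows named as pseudogenes of ribosomal protein genes took reads beside them. There were 254 such rows with 278758 reads, and for 14 members the named pseudogenes held more reads than the member. Rps13 had 650 reads and its pseudogene rows 51162, Rps10 had 1810 against 60532, Rps16 had 226 against 13927 and Rpl38 had 577 against 18090. Rps4l, an intronless copy on chromosome 6 that resembles the small subunit gene Rps4x, had 18132 reads and Rps4x 803. Reads also differed with the length of the last exon, where 3′ end reads fall. The 15 protein-coding members with a last exon of at most 100 bases had a median of 706 reads, the 13 of 101 to 150 bases 1030, the 21 of 151 to 250 bases 3458 and the 34 of 251 bases or more 6901. Reads that match several copies are left out of such counts, so levels are lower bounds, and the share lost can differ from gene to gene. The part of either feature in a member's count was not tested. Reads of 3′ libraries also do not scale with transcript length, so levels are not compared between members, and each member is followed across libraries.

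**Figure D1:**
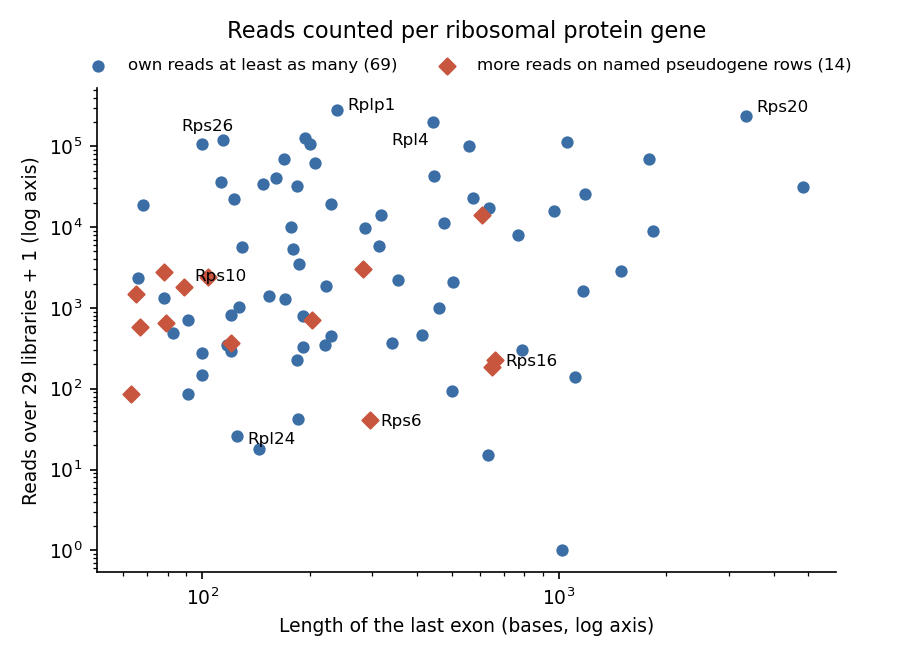
Reads per member summed over 29 libraries (log axis, 1 read added) against the length of its last exon in GENCODE M21 (bases, log axis), for the 83 protein-coding members. Red diamonds are the 14 members whose named pseudogene rows held more reads than they did; reads ran from 0 to 278263, and members with last exons of at most 100 bases had a median of 706 reads against 6901 for those of 251 bases or more.

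As a group, the ribosomal protein genes took a larger share of the reads in later fractions. In vehicle replicates 1, 2 and 3 the members held 0.822%, 0.540% and 0.606% of gene reads in F1 and 0.931%, 1.19% and 1.84% in F5. Every vehicle F5 library lay above every vehicle F1 library, and replicate 1, with the highest F1, had the lowest F5. In ICZ mice the F1 share was 0.594% and 0.516% in replicates 1 and 2, and the F5 share was 0.626%, 1.70% and 1.67% in replicates 1 to 3. ICZ replicate 1 was at 1.24% in F4 and at 0.626% in F5, which is the library dominated by a few genes. On the TMM-scaled level, which corrects library sizes for such dominance, F5 over F1 was 1.22, 1.98 and 2.56 in the vehicle mice and 1.38 and 2.88 in ICZ replicates 1 and 2. The reads of the 48 large subunit genes per read of small subunit genes stayed between 0.892 and 1.00 in all 29 libraries. The 3 P stalk genes are left out of this ratio.

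**Figure D2:**
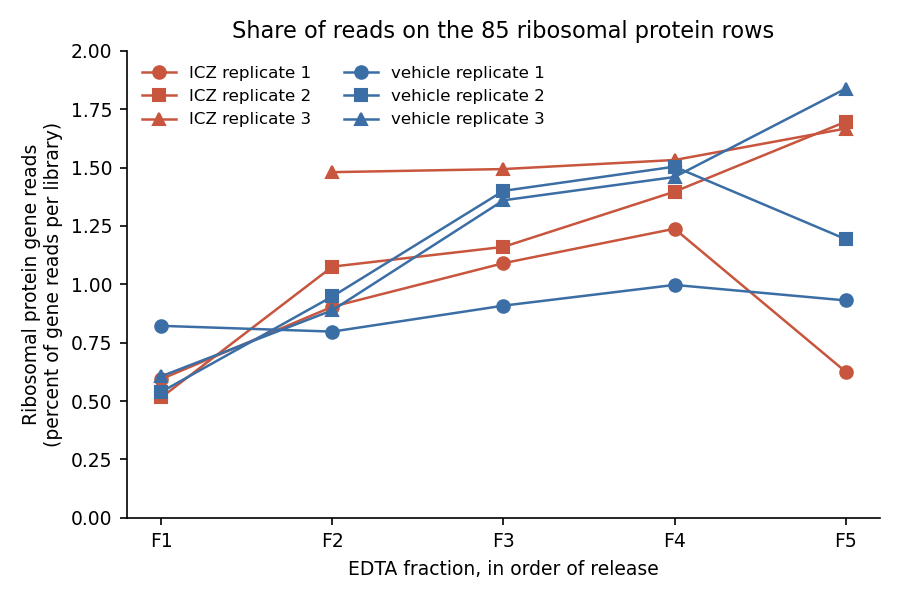
Share of gene reads on the 85 ribosomal protein genes (percent, vertical axis) in fractions F1 to F5 (horizontal axis), 1 line per mouse, vehicle in blue and ICZ in red. Vehicle shares lay between 0.540% and 0.822% in F1 and between 0.931% and 1.84% in F5, and ICZ replicate 1 was at 0.626% in F5.

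In vehicle mice the rise from F1 to F5 ran through most of the set. Of the 73 members that passed the filter on low counts, 48 were higher in F5 than in F1 and 0 were lower, by the quasi-likelihood test of edgeR blocked on the mouse, with Benjamini-Hochberg adjustment over all genes. Over all 13164 genes tested, 14.9% were higher and 13.2% lower. At an unadjusted p under 0.05 there were 56 members (76.7%, against 39.8% of all genes). DESeq2 called 50 members higher, and 1813 of all 13164 genes. The median log2 fold change of the 73 members was 0.89, or 1.85-fold, against 0.02 over all genes tested, and 71 of the 73 estimates were positive. Among the 48, F5 exceeded F1 in all 3 mice for 46 members and in 2 mice for the other 2. These members were picked by that same difference, so the agreement between mice is no separate result. The large subunit (24 of 38 higher, median 0.85), the small subunit (21 of 32, median 0.94) and the P stalk (3 of 3, median 0.89) lay close together.

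The count depended on which mice entered. Without vehicle replicate 3 it was 9 (2.98% of all genes higher), without replicate 2 it was 29 (6.1%) and without replicate 1 it was 54 (16.4%), while the median moved between 0.67 and 1.16. The 12 members that did not enter the test were Rpl10l, Rpl23a, Rpl24, Rpl27, Rpl29, Rpl30, Rpl35, Rpl39l, Rpl3l, Rpl5, Rps12l1 and Rps6, none with more than 148 reads in all. In bulk fractions fewer cells of a type and less RNA per cell cannot be told apart. With the mouse as a block, differences in level between mice are taken out. The p-values here therefore measure how much the change between fractions varied from mouse to mouse.

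All 3 genes of the P stalk were higher in F5. Rplp1 encodes the acidic protein P1, and in vehicle replicates 1, 2 and 3 it stood at 1173, 716 and 822 CPM in F1 and at 1225, 1383 and 2374 CPM in F5. The groups did not overlap, but replicate 1 gained little. The log2 fold change was 0.82 ± 0.23 (SE, adjusted p = 0.0180), and leaving out 1 mouse took it to between 0.46 and 1.24 with adjusted p up to 0.256. Rplp0, the anchor of the stalk on the large subunit, rose by 0.89 ± 0.27 (adjusted p = 0.0310), from 176, 103 and 129 CPM to 187, 215 and 393 CPM. Rplp2, which encodes P2, rose by 0.95 ± 0.28 (adjusted p = 0.0166), from 8.56, 5.56 and 7.23 CPM to 12.3, 13.6 and 15.5 CPM. Leaving out 1 mouse took the adjusted p up to 0.290 for Rplp0 and 0.140 for Rplp2.

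Among small subunit genes the largest change was that of Rps23, which encodes the protein at the decoding centre. It stood at 0.552, 0.954 and 0.590 CPM in vehicle F1 and at 2.16, 2.41 and 5.53 CPM in vehicle F5, without overlap. That gave a log2 fold change of 2.21 ± 0.48 (adjusted p = 0.00267) on a gene with 456 reads in all libraries. Rps18, which sits in the head of the subunit, followed with 1.53 ± 0.37 (adjusted p = 0.00550) and Rps7 with 1.45 ± 0.47 (adjusted p = 0.0261). Rpsa, the ribosomal form of the laminin receptor precursor, went from 67.3, 34.3 and 42.0 CPM in F1 to 83.3, 91.3 and 126 CPM in F5. All 3 of its F5 values exceeded its F1 values, with a log2 fold change of 1.05 ± 0.25 (adjusted p = 0.00843). Rps20, the most counted small subunit gene, went from 1039, 660.0 and 721 CPM to 1168, 1230.3 and 2106 CPM. Its change was 0.85 ± 0.23 (adjusted p = 0.0136). These calls depended on which mice entered. Leaving out 1 mouse took the adjusted p up to 0.140 for Rps23, 0.182 for Rps18 and 0.168 for Rps7. For Rpsa it reached 0.180 and for Rps20 0.219. Rps6 could not be tested: its 40 reads gave 0.138 CPM in F1 of replicate 1 and 0 in replicates 2 and 3, and 1.08, 0 and 0.426 CPM in F5.

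Among large subunit genes Rpl3, whose protein lies near the peptidyl transferase centre, changed most. Its level was 6.49, 3.82 and 4.72 CPM in vehicle F1 and 18.0, 17.8 and 20.1 CPM in vehicle F5. The 3 F5 libraries agreed closely and lay far above F1, with a log2 fold change of 1.88 ± 0.23 (adjusted p = 3.21e-05) that stayed between 1.74 and 2.12 when 1 mouse was left out. Rpl10, which completes the large subunit late in its maturation, went from 0.691, 1.43 and 1.18 CPM to 3.07, 4.41 and 2.84 CPM, a change of 1.64 ± 0.47 (adjusted p = 0.0141). Rpl4, the third most counted member, rose by 0.81 ± 0.16 (adjusted p = 0.00136), from 822, 574 and 630.0 CPM to 1055, 1080.4 and 1432 CPM. When 1 mouse was left out, the adjusted p reached 0.120 for Rpl10 and 0.0843 for Rpl4. Rpl38, which in development acts on the translation of Hox mRNAs, did not pass the test at 0.65 ± 0.38 (adjusted p = 0.213), and its named pseudogenes held most of its reads.

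Rpl5 and Rpl11 form, with 5S ribosomal RNA, the particle that binds MDM2 and so links ribosome assembly to p53. Rpl11 was 39.5, 27.3 and 28.3 CPM in vehicle F1 and 62.6, 62.3 and 60.7 CPM in vehicle F5. The F5 values lay within a narrow band above all F1 values. The log2 fold change was 0.97 ± 0.18 (adjusted p = 0.00102, up to 0.0544 with 1 mouse left out). Rpl5 was too low to test, at 1.52, 0.159 and 0.590 CPM in F1 and 1.62, 0.535 and 0.284 CPM in F5. Of 12 tested genes in a list of p53 targets, 16.7% were higher, close to the 14.9% of all genes. These were 2 genes (Plk3, 2.87 ± 0.35, a kinase that is also an early response gene, and Aen, 1.68 ± 0.57, a nuclease), and 3 were lower, where 13.2% of all genes were. The lower ones were the cell cycle inhibitor gene Cdkn1a (-0.47 ± 0.11), Mdm2 (-0.46 ± 0.12) and Perp (-0.33 ± 0.12).

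Several copies of ribosomal protein genes did not pass the test in vehicle mice. Rps27l, a near copy of Rps27 that p53 is known to induce, was 154, 133 and 141 CPM in vehicle F1 and 142, 146 and 156 CPM in vehicle F5. The groups overlapped, and the log2 fold change was 0.06 ± 0.10 (adjusted p = 0.730). Rps27l was higher in F4, at 178, 190.2 and 193 CPM, a change from F1 of 0.39 ± 0.10 (adjusted p = 0.0113). Rps27 itself rested on 491 reads and had an estimate of 0.82 ± 0.40 (adjusted p = 0.137).

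Rpl7l1, a nucleolar relative of Rpl7, was 54.3, 28.5 and 31.9 CPM in F1 and 40.2, 45.3 and 56.0 CPM in F5, with overlap and an estimate of 0.30 ± 0.21 (adjusted p = 0.318). Rpl7 changed by 0.68 ± 0.22 (adjusted p = 0.0276), from 5.66, 5.88 and 6.34 CPM to 9.20, 8.02 and 11.5 CPM. Rpl22l1, which can stand in for Rpl22, had an estimate of 1.17 ± 0.55 (adjusted p = 0.121) at 0.503 to 5.90 CPM in vehicle libraries. Rpl22 rose by 0.82 ± 0.19 (adjusted p = 0.00503). Rpl39 rose by 0.92 ± 0.19 (adjusted p = 0.00299), and its testis-enriched copy Rpl39l had 14 reads in 6 libraries. Rpl3l, the copy of Rpl3 used in striated muscle, had 17 reads in 9 libraries. When 1 mouse was left out, the adjusted p reached 0.247 for Rpl7, 0.121 for Rpl22 and 0.0948 for Rpl39.

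Rps4l and Rpl10a were the only tested members with negative estimates. Rps4l was 108, 98.9 and 87.8 CPM in vehicle F1 and 89.4, 98.6 and 83.0 CPM in vehicle F5, an estimate of -0.12 ± 0.13 (adjusted p = 0.527). Rps4x was at 0.86 ± 0.42 (adjusted p = 0.139). Rpl10a, whose protein lines the L1 stalk, was at -0.21 ± 0.30 (adjusted p = 0.653). A single named pseudogene row held 5228 reads beside its 713, and with that row added to it the change was 0.61 (adjusted p = 0.0167). With all named pseudogene rows added to their genes, 53 of 74 members were higher, and 1962 of all 13133 genes.

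**Figure D3:**
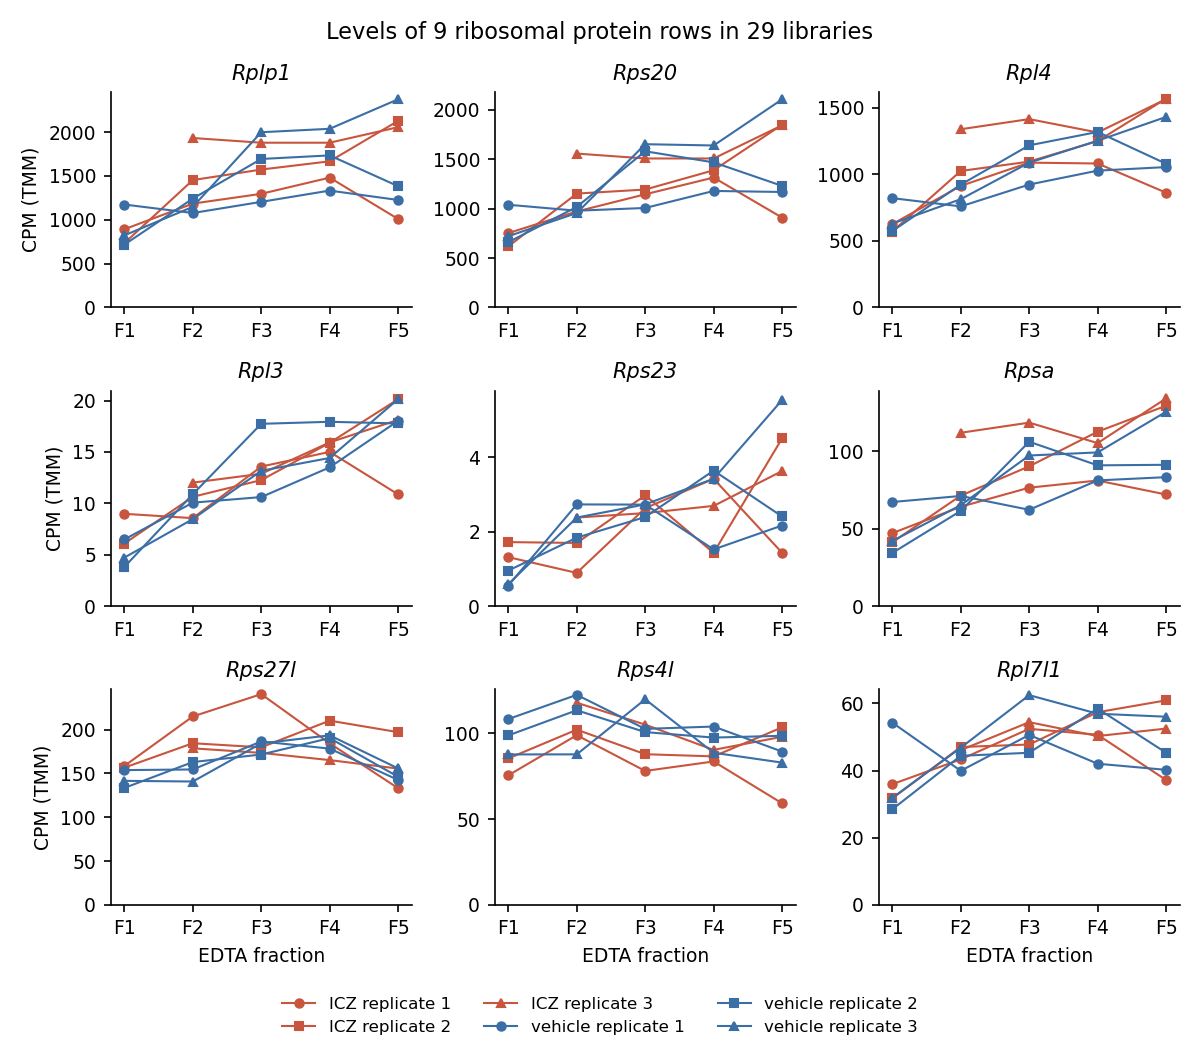
Level of 9 members (CPM with TMM library sizes, vertical axes from 0) in fractions F1 to F5, 1 line per mouse, vehicle in blue and ICZ in red. Rpl3 rose in all vehicle mice to 17.8 to 20.1 CPM in F5, whereas Rps27l stayed between 133 and 193 CPM and Rps4l between 83.0 and 123 CPM in vehicle libraries.

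The rise was already present before F5. Against F1 in vehicle mice, 0 of 73 members were higher in F2 (0% of all genes), 26 in F3 (4.18% of all genes), 46 in F4 (13.4%) and 48 in F5, with medians of 0.34, 0.72, 0.87 and 0.89. These comparisons share the F1 libraries. By mean over mice, 34 of the 73 had their highest level in F5 and 31 in F4, and 62 had their lowest in F1. Such counts were not made over all genes, so they only describe the members. As a slope over fraction number, 55 of 73 were higher, against 18.3% of all genes, with a median gain of 0.24 log2 units per fraction. Rpl10 had the steepest slope at 0.49 ± 0.11 per fraction (adjusted p = 0.00168), followed by Rps16 at 0.43 ± 0.16 and Rpl3 at 0.42 ± 0.06. Without vehicle replicate 3 the count was 22 (6.22% of all genes).

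ICZ mice, which share no library with the vehicle mice, showed the same direction. Of 72 members tested, 52 were higher in F5 than in F1 and 0 were lower, where 16.5% of all genes were higher and 16% lower, and the median was 1.02. Without ICZ replicate 2 the count was 20 (3.08% of all genes), and without the dominated F5 library of replicate 1 it was 55 (20.7%). In total 43 members were called in both treatments, which is 89.6% of the 48 called in vehicle mice and 82.7% of the 52 called in ICZ mice. The same overlap was not computed over all genes, so these percentages are not read as a feature of the members. Against F1, 31 members were higher in F2 (6.07% of all genes), 43 in F3 (10.7%) and 53 in F4 (13.8%). As a slope 49 of 72 were higher, against 14.4% of all genes, with 11 without ICZ replicate 2 (5.55% of all genes) and 56 without that F5 library (18.5%).

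Rpl12, whose protein forms the base of the P stalk, changed most among the members called in ICZ mice, from 3.73 and 3.28 CPM in F1 of replicates 1 and 2 to 14.3, 17 and 17.5 CPM in F5. Its log2 fold change was 2.09 ± 0.29 (adjusted p = 4.21e-05), while in vehicle mice it was 0.89 ± 0.33 (adjusted p = 0.0531). Next among the called members were Rps4x at 1.90 ± 0.40 (adjusted p = 0.00154), Rps10 at 1.52 ± 0.26, Rpl13a at 1.38 ± 0.29 and Rps19 at 1.36 ± 0.27. Rpl10 did not pass at 1.53 ± 0.65 (adjusted p = 0.0812). Rpl11 was 32.2 and 31.4 CPM in F1 and 76.7, 80.3 and 77.7 CPM in F5, a change of 1.27 ± 0.16 (adjusted p = 2.16e-05). Rps27l again stood at 0.11 ± 0.15 (adjusted p = 0.634) and Rps4l at 0.02 ± 0.14 (adjusted p = 0.926). Rpl7l1 passed the test in ICZ mice at 0.57 ± 0.17 (adjusted p = 0.0138). Without the dominated F5 library the estimates were 2.07 for Rpl12, 1.99 for Rps4x, 1.51 for Rps10, 1.71 for Rpl13a, 1.5 for Rps19, 1.27 for Rpl11 and 0.75 for Rpl7l1, all still called. Rps27l was then at 0.30 (adjusted p = 0.0608) and Rps4l at 0.19 (adjusted p = 0.199), neither called. With 1 ICZ mouse left out, the lowest and highest estimates were 1.0955 and 2.43 for Rps4x, and 0.697 and 1.91 for Rpl13a. They were 0.251 and 0.855 for Rpl7l1, 1.81 and 2.24 for Rpl12, and 1.44 and 1.56 for Rps10. For Rps19 they were 1.19 and 1.601, and for Rpl11 1.23 and 1.31. The sizes for Rps4x, Rpl13a and Rpl7l1 thus depended on which mice entered. Without ICZ replicate 1 or 2 a single F1 library remained, so only sizes are given. Whether the fraction profile differed between treatments was tested directly and passed for 0 of 74 members, where 0.00711% of all genes passed, with 1 member at an unadjusted p under 0.05 (5.22% of all genes) and 0 in DESeq2. As a difference of slopes it was also 0 of 74, where 0.0142% of all genes passed. There were 3 at an unadjusted p under 0.05 (5.64% of all genes) and 0 in DESeq2.

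**Figure D4:**
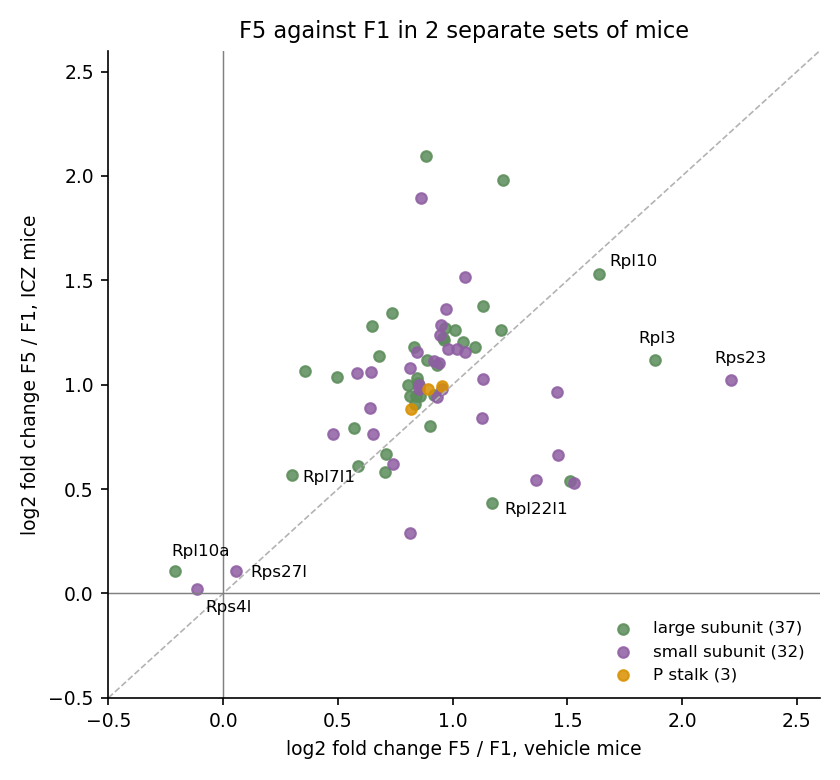
Log2 fold change from F1 to F5 in vehicle mice (horizontal) and in ICZ mice (vertical) for the 72 members tested in both, coloured by subunit, with the line of equal change dashed. Most points lie in the upper right, around medians of 0.89 and 1.02, and Rps27l, Rps4l and Rpl10a lie near 0 on both axes.

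Several other sets of genes of ribosome production moved in the same direction in vehicle mice, where 14.9% of all genes were higher and 13.2% lower. Of 40 ribosome biogenesis genes, 35 were higher in F5 than in F1 and 0 lower (median 1.09), including the snoRNP protein gene Nop58 (1.22 ± 0.14), the nucleolar helicase gene Ddx21 (1.16 ± 0.15) and the nucleostemin gene Gnl3 (1.59 ± 0.20). All 7 tested host genes of snoRNAs that carry a TOP start were higher (median 1.32), among them Snhg5 (2.54 ± 0.26) and Snhg12 (2.10 ± 0.22). Of 16 other TOP mRNAs, 10 were higher and 0 lower (median 0.62), including the histone chaperone gene Nap1l1 (1.63 ± 0.23) and the poly(A) binding protein gene Pabpc1 (0.72 ± 0.13). Among mitochondrial ribosomal protein genes 13 of 73 were higher, or 17.8%, near the share of all genes, and 1 was lower. Their median was 0.21, and Mrps18b had the largest rise among the 4 of smallest p (1.63 ± 0.32). In ICZ mice, however, 30 of 72 mitochondrial ribosomal protein genes were higher in F5 (41.7%, against 16.5% of all genes) and 0 lower. The median there was 0.42. As a slope, 24 of 73 were higher in vehicle mice (32.9%, against 18.3% of all genes). In ICZ mice the slope was higher for 12 of 72 (16.7%, against 14.4%). Of the ribosome components outside the symbol rule 2 were tested in vehicle F5 against F1. Rpl36al, a large subunit gene, rose by 0.42 ± 0.14 (adjusted p = 0.0336), and Fau, which encodes a small subunit protein, was at 0.07 ± 0.23. Of the 17 tested growth control genes 4 were higher (23.5%). They were Myc (1.61 ± 0.48), Mycn (1.86 ± 0.67), the TOP mRNA binding protein gene Larp1 (0.39 ± 0.13) and the S6 kinase gene Rps6kb1 (0.38 ± 0.11). The 2 lower ones were Max (-1.06 ± 0.17), the partner of Myc, and Rragd (-0.38 ± 0.11), a Rag GTPase gene of the mTOR pathway.

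Cell type markers moved with the fractions too, and their part in the rise was not tested. Over all genes tested, 14.9% were higher in vehicle F5 than in F1 and 13.2% lower. Enterocyte markers, summed over 21 genes, were at 42977 to 54024 CPM in vehicle F1 and 15058 to 31207 CPM in vehicle F5, with 19 of 21 lower. Proliferation markers, summed over 28 genes, were at 531 to 1008 CPM in F1 and 1329.9 to 2197 CPM in F5, with 26 of 28 higher. Stem cell markers were higher in 13 of 16 cases and Paneth cell markers in 10 of 11. Stroma and muscle markers, over 13 genes, summed to 6.68 to 14.2 CPM in vehicle F1 and 12.4 to 18.4 CPM in vehicle F5, but to 30.6 to 156 CPM in ICZ F5. Immediate early genes, which respond to tissue dissociation, were higher in vehicle F5 in 18 of 19 cases. Their sum went from 1339 to 2166 CPM in vehicle F1 to 4009 to 6525 CPM in vehicle F5. Egr2 and Jund of that early gene list had 0 reads in all libraries, so its sum lacks them. The goblet mucin gene Muc2 also had 0 reads in all libraries, so the sum of the goblet list is not read here. Of 11 tested goblet genes 6 were lower in vehicle F5 and 1 higher. Among 11 enteroendocrine genes 5 were lower and 1 higher, and among 6 tested tuft cell genes 3 were lower and 0 higher.

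ICZ itself moved no member past the threshold in the main comparison. On the reads of F2 to F5 added per mouse, edgeR's quasi-likelihood test called 0 of 78 members and 0% of all 15497 genes. DESeq2 called 0 members and 13 of the 15497 genes. There were 4 members at an unadjusted p under 0.05 (5.13%, against 5.72% of all genes), all higher and among them Rpl7a, Rpl18 and Rpl11, and the median log2 fold change was 0.13 against 0.01 over all genes. Rplp1 was 1234, 1547 and 1929 CPM in vehicle replicates 1 to 3 and 1295, 1769 and 1994 CPM in ICZ replicates 1 to 3. The groups overlapped, with a log2 fold change of 0.10 ± 0.20 (adjusted p = 0.960). Rpsa overlapped as well, at 0.19 ± 0.17 (adjusted p = 0.903), and Rpl3 stood at -0.04 ± 0.14 (adjusted p = 0.977). The members named for their role ran from -0.46 (Rpl10) to 0.28 (Rpl38).

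Rps27l was 170.1, 171 and 171 CPM in the summed vehicle libraries and 204, 197 and 174 CPM in the ICZ libraries. The groups did not overlap, and the change of 0.17 ± 0.09 failed the correction (adjusted p = 0.846). Replicates with the same number in both treatments deviated together, and with the replicate number as a block 2 members were called, Rps15a (0.30 ± 0.06, adjusted p = 0.0249) and Rpl18 (0.27 ± 0.06, adjusted p = 0.0403), where 1.49% of all genes were called. Rpl18 was 118, 124 and 115 CPM in vehicle mice and 138, 147 and 146 CPM in ICZ mice, without overlap. Rps15a was 135, 172 and 194 CPM in vehicle mice and 178, 208 and 228 CPM in ICZ mice. Its groups overlapped, and each ICZ value exceeded that of the same replicate number.

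Fraction by fraction, medians ran from -0.16 to 0.30. Members stood at a median log2 fold change of 0.30 in F2, with 0 of 66 called (0.0165% of all genes). At an unadjusted p under 0.05 there were 17 (25.8%, against 12% of all genes). DESeq2 called 1 of the 66, and 125 of all 12115 genes. With the replicate block 3 were called, Rpl37 (0.65 ± 0.11, adjusted p = 0.00550), Rps15a (0.44 ± 0.10, adjusted p = 0.0324) and Rpl39 (0.44 ± 0.11, adjusted p = 0.0493), where 1.82% of all genes were called. Without ICZ replicate 1 there were also 3, where 2.13% of all genes were called. The F2 share of gene reads on members was 0.797%, 0.948% and 0.889% in vehicle mice and 0.904%, 1.08% and 1.48% in ICZ mice, so the groups overlapped and ICZ replicate 3 was highest. Cell type markers differed in F2 as well. Proliferation markers were positive in 26 of 28 cases (median 0.52), with sums of 980.1 to 1126 CPM in vehicle and 1161 to 1769 CPM in ICZ libraries. Paneth cell markers were positive in 11 of 11 (median 0.95), at 5404 to 7260.3 CPM in vehicle and 5672 to 16742 CPM in ICZ libraries. T cell markers were positive in 0 of 14 (median -1.40), at 579 to 1348 CPM in vehicle and 214 to 437 CPM in ICZ libraries, with Ptprcap at 0 in all. At an unadjusted p under 0.05 there were 20, 4 and 12 genes of these lists, and 0 passed the correction by edgeR. Their part in the F2 values was not tested.

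In F1 the median was -0.16 with 0 of 61 called (0.0324% of all genes), 0 at an unadjusted p under 0.05 (4.39% of all genes) and 0 in DESeq2, in 3 vehicle and 2 ICZ libraries. In F3 it was 0.09 with 0 of 72 called (0.00815% of all genes), 6 at an unadjusted p under 0.05 (8.33%, against 9.15% of all genes) and 0 in DESeq2. Without vehicle replicate 1 there were 4 called in F3 (5.48%, against 3.96% of all genes). In F4 it was 0.03 with 0 of 70 called (0% of all genes), 0 at an unadjusted p under 0.05 (2.89% of all genes) and 0 in DESeq2. In F5 it was 0.11 with 0 of 70 called (0% of all genes), 2 at an unadjusted p under 0.05 (2.86%, against 2.79% of all genes) and 0 in DESeq2, and the median was 0.33, above that of F2, without the F5 library of ICZ replicate 1. The smallest unadjusted p among role members was that of Rpl22l1 in F3, at 1.43, 0.503 and 0.963 CPM in vehicle mice and 3.50, 3.90 and 3.81 CPM in ICZ mice. The groups did not overlap, and the change of 1.94 ± 0.41 failed the correction (adjusted p = 0.250). In F2 the same gene lay the other way, at -0.90 ± 0.65 (adjusted p = 0.625), and over F2 to F5 together its change was -0.00069 ± 0.32 (adjusted p = 1.00).

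**Figure D5:**
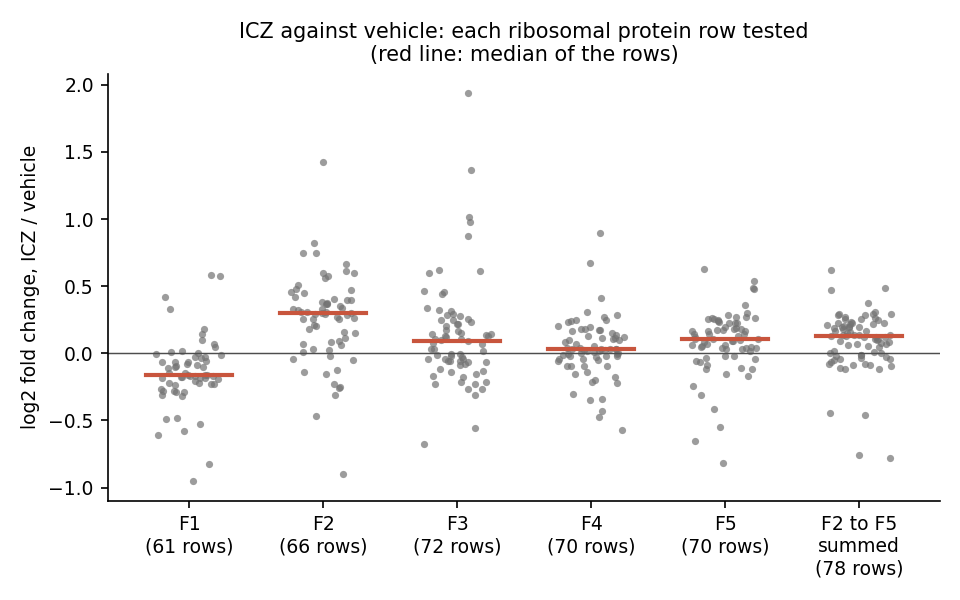
Log2 fold change of ICZ against vehicle (vertical axis) for each member tested, in F1 to F5 and in F2 to F5 summed per mouse, with the median as a red line. Medians ran from -0.16 in F1 to 0.30 in F2, and the highest point in F3 is Rpl22l1 at 1.94, which did not pass the correction.

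Change between fractions was also set beside the tract at the start. In vehicle mice the 29 tested members with a C followed by at least 7 pyrimidines near the start had a median log2 fold change of 0.92, with 18 higher, and the 26 without it had a median of 0.89, with 18 higher. No test was run on this split.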

How the data were processed

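The authors deposited 1 table of whole-number read counts per gene, not normalized, from 3′ end libraries of 30 samples. Per the submitters' processing notes, BWA 0.7.17-r1188, SAMtools 1.10, HTSeq 0.11.2 and FastQC 0.11.2 were used with the builds GRCm38.p6 and mm10. For the annotation release, the strand setting and molecular identifiers, the sources used here give nothing. Without a strand setting, reads of overlapping antisense genes cannot be told apart, and floors for a count of 0 cover counting error only. The 5 summary lines that name no gene stayed out of library sizes; reads of too low alignment quality made up 18.0% to 26.5% of counted reads. Gene reads per library ran from 4359673 to 7819837, so that 1 read was worth 0.128 to 0.229 CPM.

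Groups came from the labels, and 1 sample labelled as undetermined entered no comparison. Replicates differed beyond sampling noise (chi-square of 5.18 to 111 per degree of freedom in 28 pairs), so each library counted as 1. Counts were tested with edgeR 4.0.16 (filterByExpr, TMM, robust quasi-likelihood F test, Benjamini-Hochberg adjustment over all genes at 0.05), after the steps were tested on simulated data. Fraction comparisons had the mouse as a block. ICZ comparisons had none, and the alternative block used the replicate number: deviations from group means correlated at 0.381, 0.247 and 0.472 between vehicle and ICZ mice of the same number, so the numbers were taken as pairing, from the data and not from the labels. Alternatives were DESeq2 1.42.0, other scalings, no filter and leaving out each mouse; without the F5 library of ICZ replicate 1, TMM without the 10 most abundant genes and the addition of named pseudogene rows were chosen after seeing the data. SE is the size of the log2 fold change divided by the root of F. CPM used TMM library sizes.

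The members and gene lists were chosen with earlier results of these data known. Members were named by role, by the up to 5 largest called changes per direction, by the up to 5 smallest or opposite changes between fractions, and by the 5 highest and lowest levels; up to 4 genes of smallest p stand for each other list. The members called with the block or at an unadjusted p, those just named for low counts or pseudogene reads, Fau and Rpl36al, and list genes beyond 4 were named after their values were seen. Gene models are from GENCODE M21 (78 of 85 identifiers matched with their version), and start sequences from RefSeq, GRCm38.p6. Values of some members are not reported here.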

Additional observations from a re-analysis of the deposited data

How the results depend on the processing

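Counts of members higher in F5 than in F1 stayed between 46 and 53 in vehicle mice and between 49 and 56 in ICZ mice under the settings that kept every library. The lowest and highest counts with 1 mouse, or the F5 library of ICZ replicate 1, left out were 9 and 54 (vehicle), 20 and 55 (ICZ), and for the slopes 22 and 55 (vehicle) and 11 and 56 (ICZ), with fewer samples in each; without ICZ replicate 1 or 2 a single F1 library stands for that fraction and is assumed to vary like the others. For ICZ against vehicle the range with 1 mouse left out was 0 to 3 in F2 and 0 to 4 in F3, and 0 to 0 in the summed reads. The replicate block gave 2 members in the summed reads and 3 in F2, and changed no other call of a member count in the ICZ comparisons. In F2 DESeq2 gave 1 (125 of 12115 genes) and no filter on low counts 5 (351 of 24716 genes). Without the filter F3 gave 1 (221 of 24321 genes). The test between fractions then also gave 1 (331 of 31221 genes), where more genes were tested. Signs near 0 turned. With the same libraries left out, the lowest and highest log2 fold changes were -0.0075 and 0.11 (vehicle) and -0.032 and 0.30 (ICZ) for Rps27l, -0.41 and 0.059 (vehicle) and -0.10 and 0.46 (ICZ) for Rpl10a, -0.61 and 1.06 for Rps27 and -0.15 and 0.19 for Rps4l in ICZ mice. In the summed ICZ comparison they were -0.049 and 0.28 for Rplp1, -0.12 and 0.042 for Rpl3 and -0.30 and 0.38 for Rpl22l1. Rpl22l1 was 7.6e-05 with TMM without the members and 0.067 with the replicate block, and with named pseudogene rows added Rpl3 was 0.056 there and Rpl10a 0.61 from F1 to F5. The cause was not tested. At this depth 12 members could not be tested between vehicle fractions.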

Other observations

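The sample labelled as undetermined, which belongs to no group, had 7484796 gene reads, of which 87800 lay on ribosomal protein genes, a share of 1.17%. Reads were present for 81 of the 85 members. That share lies within the 0.540% to 1.84% of the vehicle libraries.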
